A study of Mus musculus with 24 samples.

Results

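The translation initiation and elongation factors of the mouse were taken as every protein-coding gene whose symbol begins with Eef or Eif and a digit, without the Eif2ak kinases. The rule found 64 genes, of 15839 genes with reads in either line, and it used no measured value. They were sorted by their role in translation into 12 groups. The libraries came from 2 cell lines labelled WT: NSC34, a hybrid line labelled as motor neurons, and C2C12, a myoblast line that can form muscle fibres in culture. NSC34 co-culture (n = 6) and C2C12 co-culture (n = 6) libraries came from cells grown with the other line for 3 days, and NSC34 control (n = 6) and C2C12 control (n = 6) libraries from cells grown without it. No group carried an engineered allele or a drug by the labels. Nothing in the labels tells whether the cells of the other line were removed before RNA extraction, whether a line was 1 clone, or whether replicates were separate cultures, so p-values measure only the spread between these libraries. Levels are given in CPM, a gene's reads divided by all reads of its library and scaled to a common total.

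Translation starts when eIF2 brings the initiator tRNA to the small ribosomal subunit, which is held ready by eIF1, eIF1A and the large eIF3 complex. The eIF4F complex binds the cap of the mRNA and recruits this subunit, and eIF5 and eIF5B close the step by releasing eIF2 and joining the large subunit. During elongation, eEF1A carries each aminoacyl-tRNA to the ribosome, the eEF1B complex reloads eEF1A with GTP, and eEF2 moves the ribosome along the mRNA. Vertebrates have a pair of eEF1A genes: Eef1a1 is used in most cells, and Eef1a2 is the form of mature skeletal muscle, heart and neurons, which is why their balance is of interest in a muscle line and a motor neuron line.

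The mRNAs of the eEF1A genes can be told apart by sequence. The main transcripts aligned over 1385 bases with 80.5% identity, 266 mismatches and 4 gap positions. The stretch below lies in that alignment, at positions 754 to 843 of Eef1a1-201 and 1000 to 1089 of Eef1a2-201, counted from the transcript start. It is shown because it holds many of the differences by which a read is given to one gene or the other. Capitals mark the 29 of 90 bases that differ.
Eef1a1: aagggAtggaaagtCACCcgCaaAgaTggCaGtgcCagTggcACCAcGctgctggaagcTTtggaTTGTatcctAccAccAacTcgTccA
Eef1a2: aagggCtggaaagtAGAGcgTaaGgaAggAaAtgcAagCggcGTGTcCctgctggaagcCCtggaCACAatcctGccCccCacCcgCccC
The promoters of both genes are printed because the genes differ so widely in reads (given further on). Each runs from 250 bases before the RefSeq start to 50 after it in GRCm38.p6, on the minus strand, at chr9:78481675-78481974 for Eef1a1 and chr2:181156966-181157265 for Eef1a2. Capitals mark the letters TATAA, which were searched for on both strands and overlap no other motif searched.
Eef1a1 promoter: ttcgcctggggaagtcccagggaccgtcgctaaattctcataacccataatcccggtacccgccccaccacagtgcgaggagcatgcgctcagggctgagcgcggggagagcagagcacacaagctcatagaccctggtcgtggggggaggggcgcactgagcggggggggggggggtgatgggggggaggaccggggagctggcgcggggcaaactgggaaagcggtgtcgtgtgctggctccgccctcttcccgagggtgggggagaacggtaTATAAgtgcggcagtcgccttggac
Eef1a2 promoter: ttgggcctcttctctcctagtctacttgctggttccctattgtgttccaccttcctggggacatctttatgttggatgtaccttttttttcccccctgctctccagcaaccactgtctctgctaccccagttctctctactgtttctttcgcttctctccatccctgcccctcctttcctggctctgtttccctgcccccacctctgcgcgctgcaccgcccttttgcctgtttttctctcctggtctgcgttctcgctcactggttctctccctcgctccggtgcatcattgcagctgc
TATAA began 25 bases after the Eef1a1 RefSeq start and was not found in the Eef1a2 window. The letters occur on either strand in 24.9% of all 32851 RefSeq promoters of this length, and of the 62 promoters of 48 factor genes matched by symbol 11.3% do. The match only describes letters in a window.

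Depth differed widely. NSC34 co-culture libraries held 2807 to 30314 reads and NSC34 control libraries 88 to 4624, of which 2 held fewer than 1000 (replicate 1 with 88 and replicate 6 with 822). C2C12 co-culture libraries held 143502 to 547071 reads and C2C12 control libraries 121154 to 658075. Muscle genes were abundant in C2C12: 18 markers of differentiated muscle took 4.73 ± 0.243% of co-culture reads and 4.28 ± 0.243% of control reads (SD, n = 6 each). In pooled NSC34 reads the same list took 0.0418% in co-culture and 0.0315% in controls, and Acta1, Myog and Mylpf were at 0 in both. Of the 23 muscle-list reads in NSC34 co-culture 17 were on Chrna1, an acetylcholine receptor gene. Of 8 motor neuron markers, Prph, a neuronal intermediate filament, had 19 reads in NSC34 co-culture and 6 in NSC34 controls, against 1 and 0 in C2C12. Isl1 had 2 and 1 reads in NSC34 and Chat 1 and 0, and the other 5 were at 0 there, which allows up to 42.3 CPM over all NSC34 libraries. The list took 0.04% of NSC34 co-culture reads and 0.0441% of NSC34 control reads, against 5.52e-05% and 1.34e-04% of the C2C12 reads. The neuron list of 14 genes took 0.227% and 0.202% of the NSC34 reads, against 0.0206% and 0.0228% of the C2C12 reads. Of its 125 NSC34 co-culture and 32 NSC34 control reads, 72 and 14 were on Uchl1, a neuronal ubiquitin hydrolase. Of the same list, Stmn2 lay the other way, with 0 reads in NSC34 against 193 and 176 in C2C12. Nefm also had 0 reads in NSC34, against 9 and 4 in C2C12. Its C2C12 level is under the 42.3 CPM that 0 NSC34 reads allow, so the lines cannot be ordered for it.

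The factors together took nearly the same share of the RNA in each group. They made up 1.90 ± 0.227% of reads in NSC34 co-culture and 1.90 ± 0.263% in NSC34 controls, and 1.84 ± 0.0188% in C2C12 co-culture and 1.80 ± 0.110% in C2C12 controls (SD, n = 6 each). The group ranges overlapped throughout. In NSC34, 57 of the 64 genes had a read, 26 had at least 10 and 2 had at least 100. In C2C12, 61 had a read, 59 had at least 10 and 49 had at least 100. Reads sat on few transcripts: of 62 genes with reads, 43 had at least 90% of their C2C12 reads on 1 transcript, and protein-coding transcripts held 97.5% of the factors' NSC34 reads and 98.0% of their C2C12 reads.

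The 5 highest factors, ranked per kilobase of transcript, held 46.3% of the factors' reads in NSC34 and 59.7% in C2C12. In CPM per kilobase of transcript, the 5 highest factors in NSC34 (all 12 libraries pooled) were Eef1a1 with 2070, Eif1 with 1558, Eef1b2 with 631, Eif5a with 597 and Eif4ebp1 with 496. On the same scale the 5 highest in C2C12 were Eif1 with 2172, Eef1a1 with 1621, Eef1b2 with 1588, Eif2s2 with 484 and Eif4ebp1 with 483. The order depends on the division by length. By reads alone Eef1b2 led in C2C12 with 9877, before Eef1a1 with 9619 and Eif1 with 9502. In NSC34, Eif4ebp1 with 70 reads and Eef2 with 63 stood above Eif5a with 57. Eif2s2 and Eif4ebp1 in C2C12 lie within their counting error of each other, and Eif4ebp1 with 606 stands above Eif5a with 512 in NSC34 without co-culture replicate 2. By role, eEF1A held 19.7% of the factors' NSC34 reads and 15.8% of their C2C12 reads, the eEF1B complex 11.96% and 19.6%, eIF1 with eIF1A 14.1% and 17.5%, and eIF3 17.3% and 12.1%.

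**Figure D1:**
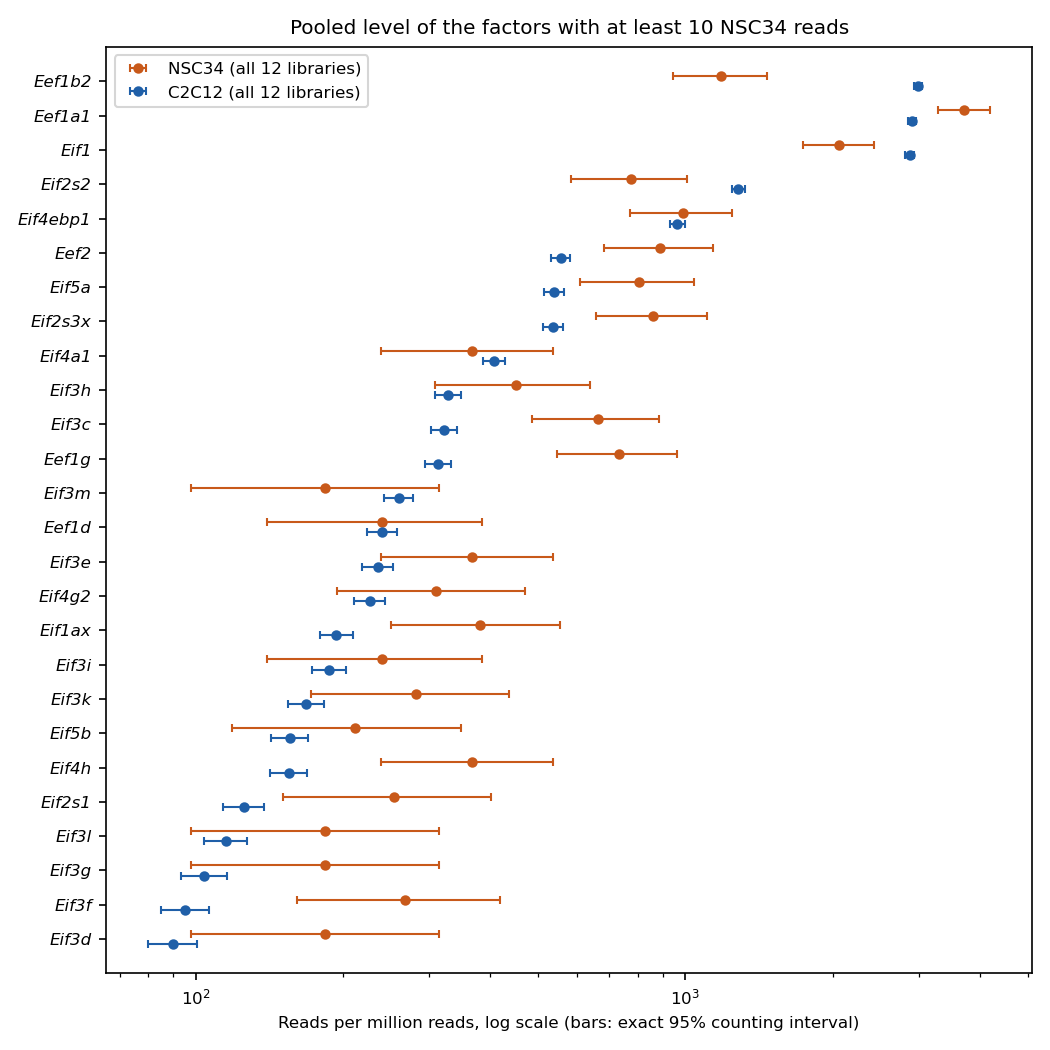
Pooled level of the 26 factors with at least 10 NSC34 reads, in CPM on a log axis, over all 12 NSC34 libraries (orange) and all 12 C2C12 libraries (blue), with exact 95% counting intervals that leave out the spread between libraries. Eef1b2, Eif1 and Eif2s2 lie to the left in NSC34, at 1185, 2060 and 776 against 2984, 2871 and 1283 in C2C12.

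Did growth beside NSC34 cells change the factors of the muscle line? No factor passed in the C2C12 libraries: of 43 factors with enough reads to be tested, 0 rose and 0 fell in co-culture at an adjusted p under 0.05 (edgeR quasi-likelihood test, Benjamini-Hochberg adjustment over all 2570 genes tested). The background was low, with 37 genes or 1.44% called, 21 higher (0.817%) and 16 lower (0.623%). Scaled by library totals, 58 genes (2.26%) were called, 23 higher (0.895%) and 35 lower (1.36%), and again 0 factors. An unadjusted p under 0.05 was reached by 3 factors, Eif3a, Eif4ebp1 and Eif4h, and by 378 of all genes. The factors' fold changes were positive in 22 and negative in 21, from -0.63 to 0.46 on the log2 scale, with a median of 0.01 against 0.0024 over all tested genes. DESeq2 called 0 factors and 46 genes (1.79%), and limma-voom 0 factors and 33 genes (1.28%). On simulated libraries the test recovered 57 of 67 genes changed 2-fold and 32 of 67 changed 1.5-fold, and called 14 of 2389 unchanged ones. Those libraries held more changed genes than the 37 called here, which eases the adjustment, and gave all genes a common spread. Their changed genes were drawn from all tested genes, so the recovery does not tell what could be seen in the factors.

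**Figure D2:**
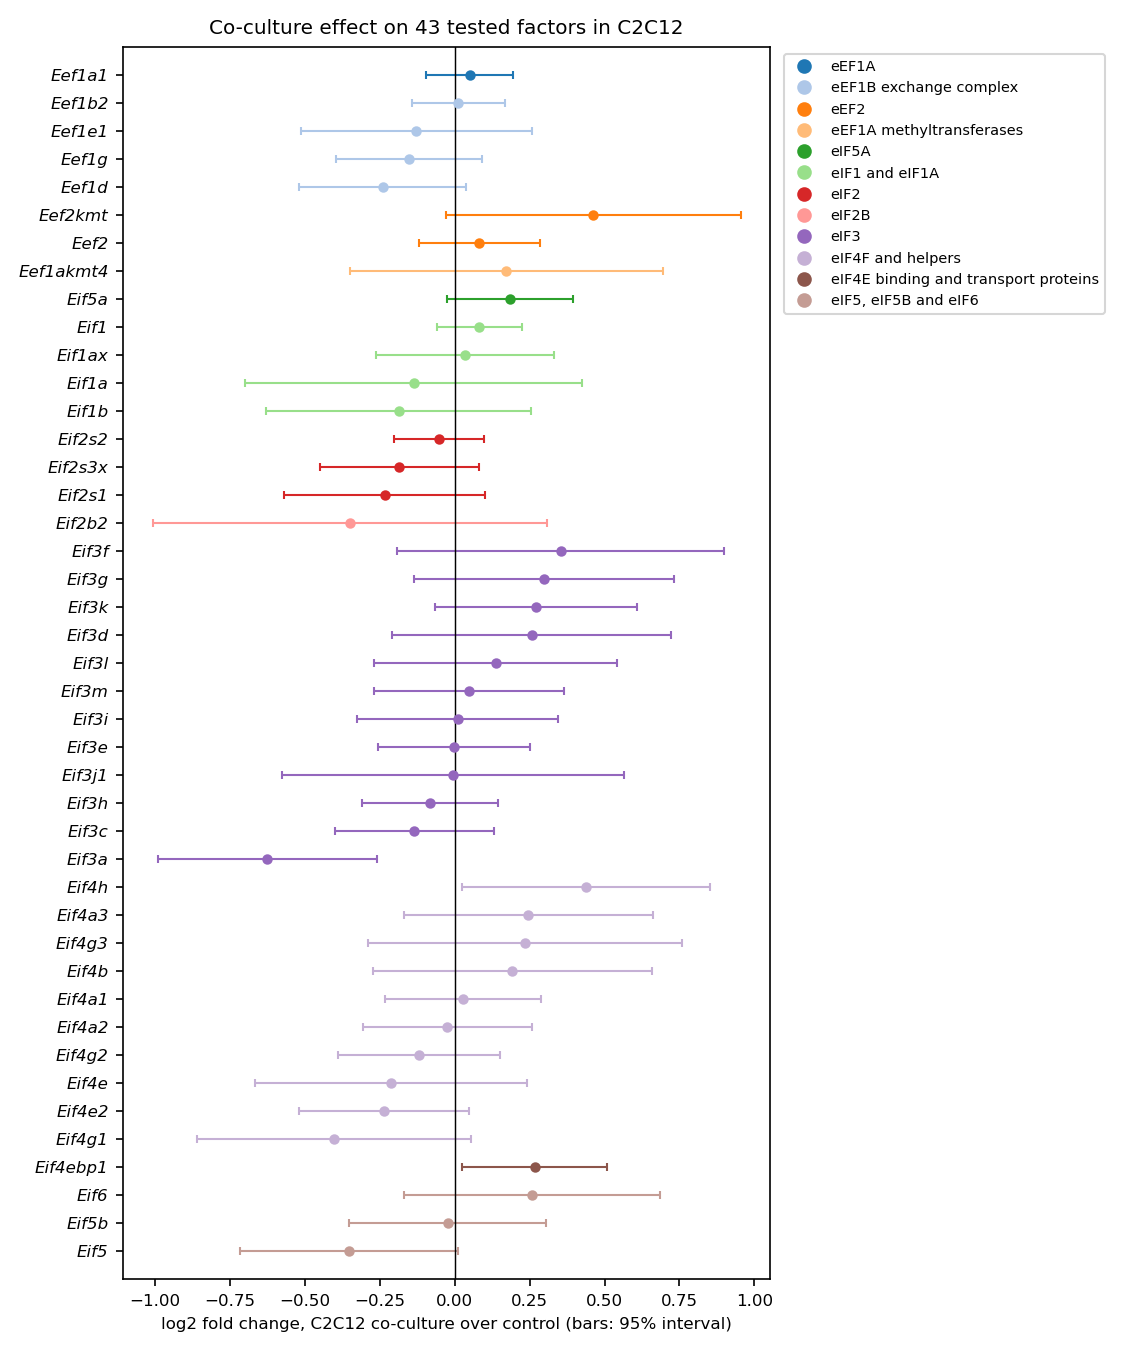
Log2 fold change of each of the 43 tested factors in C2C12, co-culture over control, with its 95% interval (n = 6 each), grouped and coloured by role. Eif3a sits lowest at -0.63, and the deeply read Eef1a1, Eef1b2, Eif1 and Eif2s2 have the narrowest intervals, all crossing 0.

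Other translation genes did not pass in C2C12 either. Of 14 tested cytosolic aminoacyl-tRNA synthetase genes, 0 rose and 0 fell, with a median of -0.07: the smallest p was that of Lars, the leucyl-tRNA synthetase, at -0.89 (adjusted p = 0.0524), then Eprs at -0.56 (adjusted p = 0.202). Of 11 other cytosolic translation genes 0 passed, with a median of -0.10, Pabpc1, the poly(A) binding protein, at -0.72 (adjusted p = 0.0524) and Tpt1 at 0.18 (adjusted p = 0.0866). Of the mitochondrial factors, Mrrf at 0.24 and Tufm at -0.21 were tested and did not pass. The 9 factors on the list of 5′ TOP mRNAs, whose translation is tied to mTOR, had a median of 0.01 with 0 passing. Beside these, 4 of 17 tested muscle markers rose in co-culture, Mb by 0.73, Ckm by 0.64, Tnnt1 by 0.45 and Myog by 0.43 on the log2 scale, and 0 fell. In bulk RNA, fewer cells of a type and less RNA per cell cannot be told apart. Of the neuron list, Tubb3 at -0.27 and Stmn2 at -0.13 were tested in C2C12 and did not pass.

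In NSC34 the co-culture question was limited by depth. Just 49 genes had enough reads to be tested, 1 of them a factor, Eef1a1, and 0 genes were called (0%), with 1 gene at an unadjusted p under 0.05. DESeq2 and limma-voom called 0 genes too. With every gene of at least 10 reads in total, 26 factors were tested, 0 passed, and 7 of 1109 genes or 0.631% did.

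The lines themselves were compared in 1 model of all 24 libraries, with 1328 genes and 27 factors tested. In that model the scaling matters more than for the other comparisons. Under TMMwsp scaling, a form of trimmed-mean scaling made for many zeros, the median log2 fold change of all tested genes, NSC34 over C2C12, was -0.40 in co-culture and -0.997 in controls. Under library totals the medians were 0.06 and -0.09. On simulated libraries with no shift the median of unchanged genes came out at -0.17 and -0.63 under TMMwsp, against -0.08 and -0.09 under totals. Those libraries drew both lines from 1 pooled profile with a common spread. They held far fewer changed genes than the 544 and 694 called between lines in controls and co-culture under TMMwsp. They therefore do not tell which scaling is right where the lines differ this widely. Because the medians depend on scaling, fold changes between lines are also given relative to the median of all tested genes. Only calls made under both scalings are described as differences.

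Between control libraries, 0 factors were higher and 5 lower in NSC34 under TMMwsp (background 5.72% higher and 35.2% lower, 41% in all), and 3 were higher and 1 lower under totals (background 10.8% and 12%, 22.9% in all). Eef1b2 alone was called under both, lower in NSC34. Without the 2 libraries of fewer than 1000 reads 41 factors were tested and 13 were called, all lower, under TMMwsp (background 34.2%), and DESeq2 called 3 (background 32.3%). Between co-cultured libraries, 2 factors were higher and 5 lower in NSC34 under TMMwsp (background 16.5% and 35.8%, 52.3% in all), and 10 were higher and 5 lower under totals (background 26.5% and 25.1%, 51.6% in all). Those called under both were Eef1g and Eif3c, higher, and Eef1b2, Eif1, Eif2s2, Eif4a2 and Eif4e2, lower in NSC34. To be tested a factor needed 132 CPM in 6 libraries: 18 of the 27 met this in either line alone, 6 in C2C12 but not in NSC34 (Eif3a, Eif3i, Eif3m, Eif4a2, Eif4e2 and Eif5b), and 3 in NSC34 but not in C2C12 (Eif2s1, Eif3f and Eif3g). Those 9 could be tested only through their level in 1 line, so a call of one of them is given as a description and is no support for a difference. Under TMMwsp the called factors are a smaller part of the 27 than the background in both directions, and under totals the higher ones in co-culture are a larger part and the lower ones a smaller part. The factors' median log2 fold change was 0.15 in co-culture and -0.86 in controls, against -0.40 and -0.997 over all genes. A test of whether co-culture acted differently in NSC34 and C2C12 (interaction term) was passed by 0 factors and 0 of 1328 genes (0%), with 168 genes and 6 factors at an unadjusted p under 0.05. DESeq2 called 2 genes (0.151%) and 0 factors, and limma-voom 0 genes. NSC34 co-culture replicate 2 holds 30314 of the 55007 NSC34 co-culture reads, and the calls that rest on it are named with their genes.

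**Figure D3:**
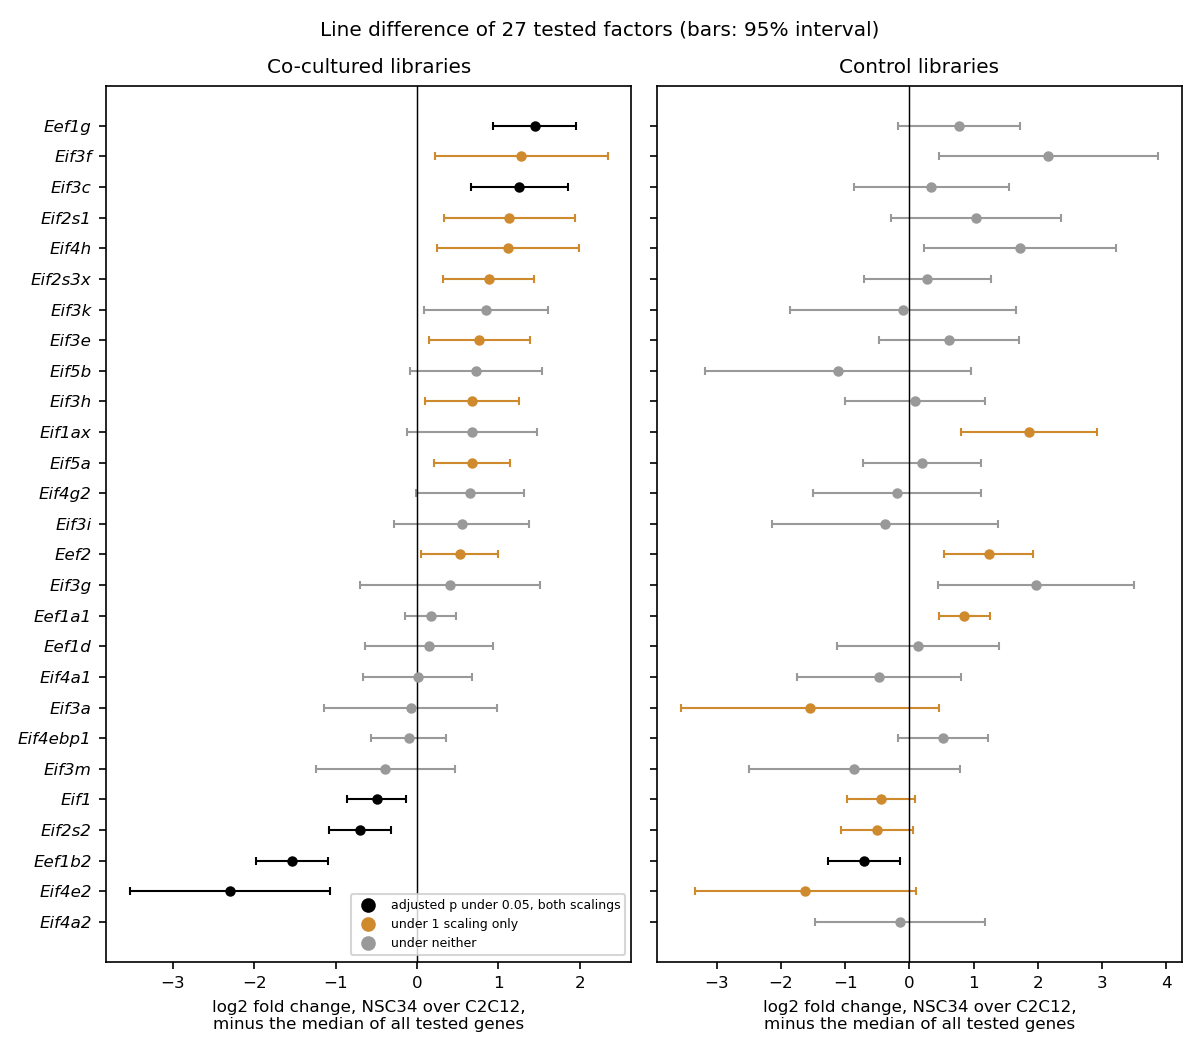
Log2 fold change of the 27 tested factors, NSC34 over C2C12, minus the median of all tested genes, with 95% intervals of the fold change under TMMwsp scaling, in co-cultured (left) and control (right) libraries. Black points were called under both scalings, orange under 1 and grey under neither; Eif4a2, at 0 reads in NSC34 co-culture, has no point on the left.

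Nearly all eEF1A reads were Eef1a1 in both lines. Eef1a1 lies at chr9:78478449-78489151 and Eef1a2 at chr2:181147653-181157014, both on the minus strand of GRCm38. In NSC34, Eef1a1 had 190 reads in co-culture and 73 in controls, and Eef1a2 had 1 and 0. In C2C12, Eef1a1 had 5254 and 4365 reads, and Eef1a2 had 0 and 0. The single Eef1a2 read was in NSC34 co-culture replicate 3, where Eef1a1 had 20, and the other 23 libraries held none. Eef1a2 thus took 0.379% of NSC34 eEF1A reads (1 of 264, exact 95% interval 0.00959% to 2.09%). In C2C12, 0 of 9619 eEF1A reads allow a share of up to 0.0312%, so Eef1a1 had at least 3206-fold more reads there, taking 3 reads over all 12 libraries as the limit of a count of 0. The limit on Eef1a2 was 1.66 CPM in C2C12 co-culture and 2.004 in C2C12 controls. An exact permutation test of the share (two-sided) had nothing to separate, since the share was 0 in every C2C12 library and in every control library (p = 1 for co-culture against control in C2C12 and for NSC34 against C2C12 controls). The one annotated gene with reads sharing at least 100 bases at 90% identity with Eef1a1 was Prex2, over 116 bases on the opposite strand, with 3 NSC34 and 38 C2C12 reads. Transcript Eef1a1-201 held 100% of the NSC34 reads and 99.9% of the C2C12 reads of its gene.

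No change of Eef1a1 with co-culture passed. It ran from 1625 to 4309 CPM in NSC34 co-culture (median 3845) and from 3925 to 22727 in NSC34 controls (median 4803), where the highest value is 2 reads of the 88-read library. In C2C12 it ran from 2655 to 3115 in co-culture (median 2898) and from 2361 to 3077 in controls (median 2788). Co-culture and control ranges overlapped in both lines, whereas every NSC34 control library lay above every C2C12 control library. The fitted co-culture effects were -0.50 in NSC34 (95% interval -1.03 to 0.04, adjusted p = 0.842, between 0.355 and 0.889 with each library left out) and 0.05 in C2C12 (95% interval -0.09 to 0.20, adjusted p = 0.834). Between control libraries the direction of Eef1a1 depended on scaling, at -0.14 under TMMwsp and 0.79 under totals, or 0.86 and 0.89 above the median of all genes, with a call only under totals. The 4 enzymes that methylate eEF1A were rare: Eef1akmt4, the one tested, had 98.8 CPM in NSC34 and 53.8 in C2C12, with a C2C12 co-culture effect of 0.17 (adjusted p = 0.844), but Alg3, which shares 143 bases with it on the opposite strand, held 12 NSC34 and 233 C2C12 reads, against 7 and 178 of its own. Eef1akmt3 had 0 NSC34 reads and 69 C2C12 reads, and it shares sequence with 1238 other genes, so its reads are uncertain.

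In the exchange complex eEF1B, Eef1b2 (chr1:63176825-63180486, plus strand), which encodes a catalytic exchange subunit, was lower in NSC34 both in co-culture and in controls. Eef1b2 ran from 199.8 to 2138 CPM in NSC34 co-culture (median 977) and from 0 to 1963 in NSC34 controls (median 1505). It ran from 2381 to 3220 in C2C12 co-culture (median 3062) and from 2749 to 3132 in C2C12 controls (median 2951). All 12 NSC34 libraries lay below all 12 C2C12 libraries. The 0 is that of the 88-read control library, where it allows up to 34091 CPM, so that library cannot be placed. The fold change was -1.94 in co-culture (SE 0.22, adjusted p = 3.10e-09) and -1.70 in controls (SE 0.28, adjusted p = 7.815e-06) under TMMwsp, and -1.46 and -0.78 under totals (adjusted p = 1.54e-07 and 0.0301). Relative to the median gene it was -1.54 and -0.70. Over the alternatives the adjusted p stayed between 5.845e-18 and 1.54e-07 in co-culture and between 4.64e-08 and 0.0301 in controls. Within C2C12 its co-culture effect was 0.01 (95% interval -0.14 to 0.17). Its 9 sequence relatives held 14 NSC34 and 687 C2C12 reads against 84 and 9877 of its own. Its short transcript Eef1b2-209 held 5.95% of its NSC34 reads and 4.76% of its C2C12 reads.

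Set against Eef1a1 in the same library, which needs no scaling between libraries, Eef1b2 showed the same order. This share moves with both genes and does not measure Eef1b2 alone. By pooled CPM Eef1a1 was itself higher in NSC34, with a ratio to C2C12 of 1.19 in co-culture and 1.58 in controls. Of the reads on the pair, Eef1a1 took 76.6% in NSC34 co-culture (exact 95% interval 70.8% to 81.7%) and 73.7% in NSC34 controls (63.9% to 82.1%), against 49.5% in C2C12 co-culture (48.6% to 50.5%) and 49.1% in C2C12 controls (48.04% to 50.1%). By library the share ran from 66.7% to 100% in NSC34 controls and from 45.4% to 50.8% in C2C12 controls, which do not overlap. The 100% is 2 Eef1a1 reads and 0 Eef1b2 reads of the 88-read library, and counting error is left out. In co-culture the share ran from 53.8% to 95.2% in NSC34 and from 46.0% to 55.4% in C2C12, where the lowest NSC34 library falls inside the C2C12 range. The 95.2% rests on 20 Eef1a1 reads and 1 Eef1b2 read.

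Eef1g (chr19:8967041-8978479, plus strand), the gamma subunit of the complex, differed in the other direction in co-culture. It ran from 232 to 1657 CPM in NSC34 co-culture (median 812) and from 259 to 362 in C2C12 co-culture (median 290). The ranges overlap at the low end, where 1 NSC34 library lies below the C2C12 range. The fold change in co-culture was 1.05 (SE 0.25, adjusted p = 6.23e-04), or 1.44 above the median gene, but without NSC34 co-culture replicate 2 it was 0.53 (adjusted p = 0.217; range over all libraries left out 1.08e-04 to 0.217). As a share of the reads on Eef1b2 and Eef1g together, Eef1g took 43.1% in NSC34 co-culture (libraries 14.3% to 83.3%) and 23.5% in NSC34 controls (0% to 33.3%). In C2C12 it took 8.95% in co-culture (7.57% to 10.9%) and 10.1% in controls (7.85% to 12.2%), so that the co-cultured libraries of the lines do not overlap and the controls do. A lower Eef1b2 raises this share as well, so the separation is no evidence on Eef1g alone. The lowest NSC34 co-culture share rests on 1 Eef1g read and 6 Eef1b2 reads. In controls Eef1g was not called, and its direction depended on scaling, at -0.23 under TMMwsp and 0.67 under totals. Eef1d, the delta subunit, had 239.9 CPM in NSC34 and 240.5 CPM in C2C12 over pooled reads, and it was called in no comparison. Its C2C12 co-culture effect was -0.24 (adjusted p = 0.426), with all 6 co-culture libraries below the control median. Here and for the factors below, the share of all tested genes with such a pattern was not worked out, so it only describes the libraries. Eef1e1, counted here by its symbol and known as a part of the multi-synthetase complex, had 98.8 CPM in NSC34 and 81.6 CPM in C2C12.

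**Figure D4:**
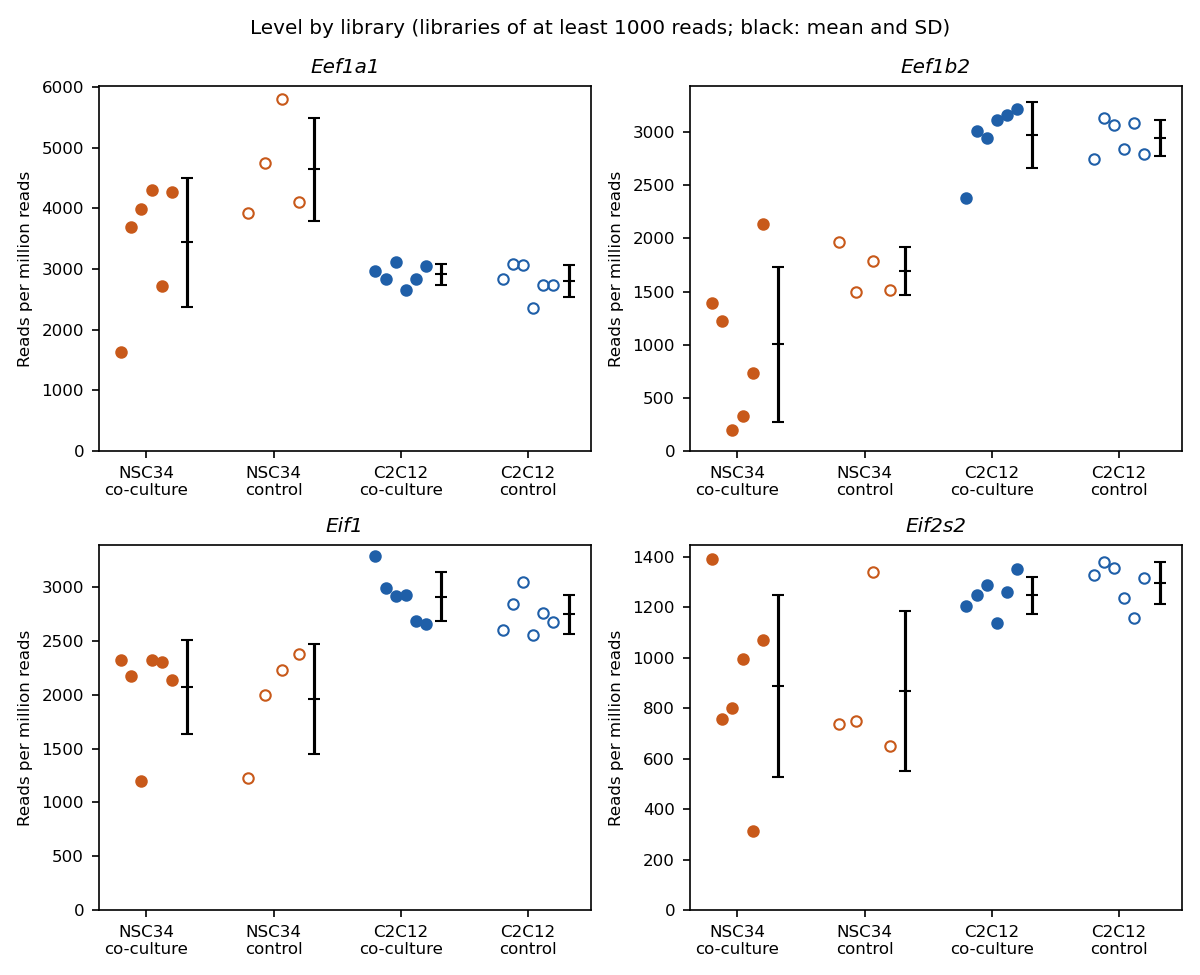
CPM of Eef1a1, Eef1b2, Eif1 and Eif2s2 in each library of at least 1000 reads (points; filled for co-culture, open for control), with mean and SD in black; NSC34 control replicates 1 and 6 are not drawn. NSC34 libraries lie below all C2C12 libraries for Eef1b2, at most 2138 against at least 2381, and for Eif1, at most 2379 against at least 2559, and overlap them for Eif2s2, at 314 to 1392 against 1136 to 1380.

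Eef2, the translocase, was not called under both scalings. It ran from 209 to 1657 CPM in NSC34 co-culture (median 818) and from 0 to 1298 in NSC34 controls (median 1107). It ran from 507 to 610 in C2C12 co-culture (median 564) and from 413 to 633 in C2C12 controls (median 553). The NSC34 ranges contain the C2C12 ranges, in controls only through the 0 of the 88-read library. Every other NSC34 control library lay at 893 CPM or more, above all C2C12 control libraries. It was higher in NSC34 under totals in both comparisons, at 0.59 and 1.14, but was not called under TMMwsp. In C2C12 the co-culture effect was 0.08 (adjusted p = 0.797). Of its regulators, Eef2k, the kinase that inactivates eEF2, had 2 NSC34 and 34 C2C12 reads and was under the filter. Eef2kmt, the eEF2 methyltransferase, was at 0.46 in C2C12 (adjusted p = 0.375), with all 6 co-culture libraries above the control median, but it shares sequence with 248 genes.

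Nearly all reads of eIF5A, which helps the ribosome through hard peptide bonds, were on Eif5a in both lines. Eif5a ran from 199.8 to 1392 CPM in NSC34 co-culture (median 949) and from 478 to 625.1 in C2C12 co-culture (median 538.5). The NSC34 range contains the C2C12 range. It was called under totals only, at 0.73, against 0.27 under TMMwsp. Its C2C12 co-culture effect was 0.18 (adjusted p = 0.416). Its relative Eif5a2 had 0 of 57 pair reads in NSC34 and 4 of 1793 in C2C12, a share of 0.223% (exact 95% interval 0.0608% to 0.570%).

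Among the scanning factors, Eif1 (chr11:100319885-100322096, plus strand), which guards the choice of the start codon, was lower in NSC34 co-culture. It ran from 1199 to 2321 CPM in NSC34 co-culture (median 2240) and from 0 to 2379 in NSC34 controls (median 1611). It ran from 2656 to 3287 in C2C12 co-culture (median 2923) and from 2559 to 3044 in C2C12 controls (median 2719). As with Eef1b2, all 12 NSC34 libraries lay below all 12 C2C12 libraries. The control libraries of 88 and 822 reads held 0 Eif1 reads, which allows up to 34091 and 3650 CPM, so they cannot be placed. In co-culture the fold change was -0.89 under TMMwsp (SE 0.18, adjusted p = 7.86e-05) and -0.40 under totals (adjusted p = 0.0226; range over the alternatives 1.13e-07 to 0.0226), or -0.50 relative to the median gene. In controls it was -1.44 (adjusted p = 3.81e-05) and -0.53, where totals gave no call (adjusted p = 0.0933; range over the alternatives 5.07e-07 to 0.0933). Eif1 shares 662 bases at 96.7% identity with Emd, which held 11 NSC34 and 228 C2C12 reads against 146 and 9502. Within C2C12 the effect of co-culture was 0.08 (adjusted p = 0.669).

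Paralogs of the scanning factors stayed minor. Eif1b had 9 NSC34 reads and 220 C2C12 reads, 5.81% of the pair with Eif1 in NSC34 (exact 95% interval 2.69% to 10.7%) and 2.26% in C2C12 (1.98% to 2.58%), intervals that cover counting error only. The X-linked Eif1ax had 27 NSC34 and 642 C2C12 reads and the autosomal Eif1a 3 and 176, so that Eif1a took 10% of the pair in NSC34 and 21.5% in C2C12, within overlapping intervals. In C2C12 co-culture Eif1b was at -0.19, Eif1ax at 0.03 and Eif1a at -0.14, and none of the 3 passed.

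For eIF2, which carries the initiator tRNA, the beta subunit gene Eif2s2 (chr2:154871410-154892935, minus strand) was lower in NSC34 co-culture. Eif2s2 ran from 314 to 1392 CPM in NSC34 co-culture (median 897) and from 0 to 1340 in NSC34 controls (median 742). It ran from 1136 to 1351 in C2C12 co-culture (median 1254) and from 1159 to 1380 in C2C12 controls (median 1321). Of the 12 NSC34 libraries 9 lie below all C2C12 libraries of either group, 2 control libraries lie inside their range, and 1 co-culture library lies just above it. Among the 9 is the 88-read control library, whose 0 reads cannot place it. In co-culture the fold change was -1.10 under TMMwsp (SE 0.19, adjusted p = 7.97e-06) and -0.63 under totals (adjusted p = 0.00623; range over the alternatives 1.44e-07 to 0.00623). In controls it was -1.50 (adjusted p = 5.81e-05) and -0.59 (adjusted p = 0.207; range over the alternatives 1.60e-06 to 0.207), so the control difference was called under TMMwsp only. The gamma subunit gene Eif2s3x was at 0.48 and the alpha subunit gene Eif2s1, whose product is phosphorylated under stress, at 0.74 in co-culture, neither called under TMMwsp and both under totals. The Y-linked Eif2s3y had 0 reads in both lines against 61 NSC34 and 1777 C2C12 reads of Eif2s3x, which allows Eif2s3y a C2C12 share of up to 0.207% (upper end of the exact interval). In C2C12 co-culture Eif2s2 was at -0.05, Eif2s3x at -0.19 and Eif2s1 at -0.23, all short of the threshold. A retained-intron transcript, Eif2s2-203, held 10.8 ± 0.811% of Eif2s2 reads in C2C12 co-culture and 10.3 ± 1.92% in C2C12 controls (SD, n = 6 each).

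The genes of eIF2B, which recycles eIF2, were the least read of the complexes. Its 5 genes together took 0.00545% of NSC34 co-culture reads and 0.0126% of NSC34 control reads, against 0.0168% in C2C12 co-culture and 0.0186% in C2C12 controls. With 3 NSC34 co-culture and 2 NSC34 control reads in all, the lines could not be compared for them. In C2C12 only Eif2b2 was tested, at -0.35 (adjusted p = 0.703). Eif2b1 had 1 NSC34 read and 151 C2C12 reads, and Eif2b3 had 0 and 102. Of the alternative carriers of initiator tRNA, Eif2d had 0 NSC34 and 36 C2C12 reads, and Eif2a 6 and 84.

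The eIF3 genes, which encode the scaffold on the small subunit, are compared first by their share of all reads, a measure on library totals. The 14 genes took 0.232% to 0.399% of the reads of NSC34 co-culture libraries and 0% to 0.294% of NSC34 control libraries, against 0.196% to 0.230% and 0.188% to 0.247% in C2C12. The co-cultured libraries of the lines do not overlap, and the controls do. The gap in co-culture is narrow, at 0.232% in an NSC34 library of 3017 reads against 0.230% in C2C12, and counting error is left out. Under TMMwsp scaling 1 of the 9 tested eIF3 genes, Eif3c, was called higher in NSC34 co-culture and 0 lower. Eif3c (chr7:126546455-126566411, minus strand), a core subunit, ran from 232 to 989.6 CPM in NSC34 co-culture (median 461) and from 239 to 384 in C2C12 co-culture (median 272). It was higher in NSC34 co-culture by 0.86 (SE 0.29, adjusted p = 0.0139), or 1.26 above the median gene, but 30 of its 41 NSC34 co-culture reads were in replicate 2. Without that library the fold change was -0.30 (adjusted p = 0.585), and limma-voom gave 0.31 (adjusted p = 0.420; range over the alternatives 1.73e-04 to 0.585). Without the shallow NSC34 control libraries the adjusted p was 0.171, and leaving out NSC34 co-culture replicate 5 or 6 or any NSC34 control replicate gave adjusted p from 0.0596 to 0.0851. Eif3e, Eif3f and Eif3h were called in co-culture under totals but not TMMwsp, at 0.83, 1.32 and 0.73.

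In C2C12, an eIF3 gene had the smallest p of the factors. Eif3a (chr19:60761117-60790658, minus strand), the largest subunit, ran from 119 to 153 CPM in co-culture (median 139.5) and from 141 to 294 in controls (median 193). Control replicates 1, 2 and 3 were high, at 294, 229 and 275, and replicates 4, 5 and 6 lay at 157, 141 and 156, so that 1 control library lies inside the co-culture range. The fold change was -0.63 (SE 0.18, 95% interval -0.99 to -0.26) with an adjusted p of 0.0648. It passed without control replicate 5 (-0.72, adjusted p = 0.0242) or control replicate 6 (-0.69, adjusted p = 0.0402), and over all libraries left out the adjusted p ran from 0.0242 to 0.188. With the trend on transcript length removed it was -0.47 (adjusted p = 0.189; range over the other settings 0.0543 to 0.189). Eif3h was at -0.08 and Eif3c at -0.13, and of the 12 tested subunits 7 were positive and 5 negative. Between control lines Eif3a was called lower in NSC34 under TMMwsp, at -2.55, from 1 NSC34 control read, and not under totals. Eif3j1 and Eif3j2 match at 99.4% over 2379 bases, so their 245 and 162 C2C12 reads cannot be split with confidence.

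In the cap-binding group, Eif4a2 (chr16:23107444-23114136, plus strand), a helicase that opens mRNA structure, had no read in NSC34 co-culture. It had 0 reads in all 6 NSC34 co-culture libraries, which allows up to 54.5 CPM (3 reads over the group). In C2C12 co-culture it ran from 210 to 286 CPM (median 227), with 409 reads. On pooled reads that limit lies 4.14-fold under the C2C12 co-culture level, which leaves out the spread between libraries. The exact counting interval of the ratio of levels ends at 0.299. Without replicate 2, 0 of 24693 reads allow up to 121 CPM, a limit 1.86-fold under the C2C12 co-culture level. Its call under both scalings is no support, since it was tested only through its C2C12 level, and it was not tested when any C2C12 library was left out. In controls it had 3 NSC34 reads, a ratio of 0.755 to C2C12 with a counting interval of 0.155 to 2.22, and was not called. All 3 were on Eif4a2-204, annotated as a target of nonsense-mediated decay, whereas 714 of 784 C2C12 reads were on the coding Eif4a2-201. The interaction of line and co-culture did not pass for it (adjusted p = 0.202 under TMMwsp and 0.305 under totals). Its relative Eif4a1 had 26 NSC34 and 1347 C2C12 reads, 367 and 407 CPM, and was called in no comparison. Eif4a2 took 0 of 22 pair reads in NSC34 co-culture (exact 95% upper end 15.4%) and 3 of 7 in NSC34 controls, against 35.7% in C2C12 co-culture and 38.0% in C2C12 controls.

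**Figure D5:**
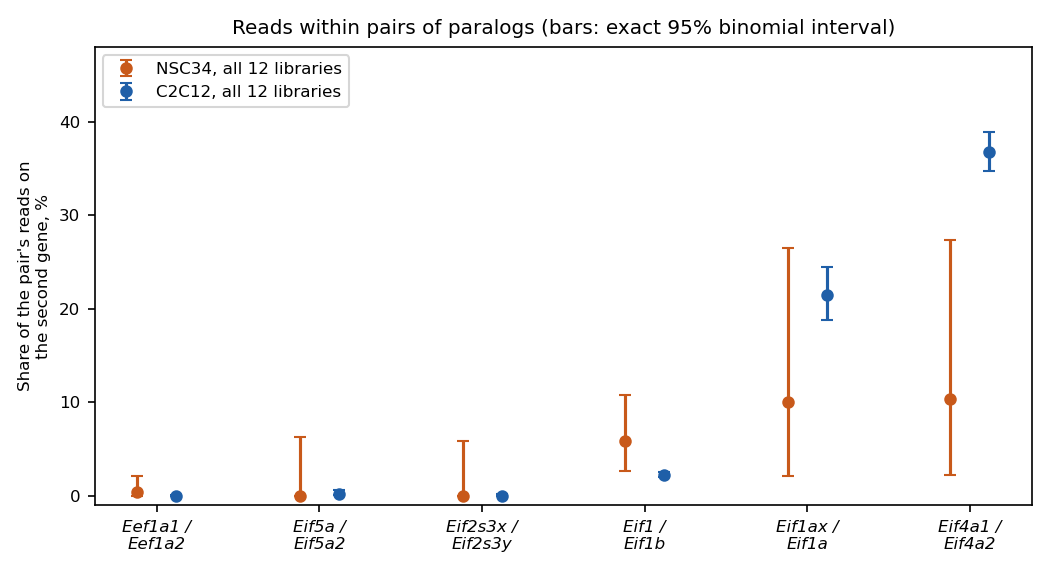
Share of the reads of 6 paralog pairs that fell on the second gene, in percent, over all 12 NSC34 libraries (orange) and all 12 C2C12 libraries (blue), with exact 95% binomial intervals that cover counting error only. Eef1a2, Eif5a2 and Eif2s3y are at or near 0 in both lines, and the Eif4a2 share is 10.3% in NSC34 and 36.8% in C2C12.

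Eif4e2 (chr1:87213914-87240488, plus strand), a cap-binding protein that represses translation, had few reads in NSC34. It had 2 reads in NSC34 co-culture and 1 in NSC34 controls, against 343 and 346 in C2C12. In co-culture the ratio of levels was 0.192, with a counting interval of 0.0232 to 0.699, and the 2 reads were in replicates 2 and 5. Like Eif4a2 it was tested only through its C2C12 level and dropped out when any C2C12 library was left out, so its call is no support. In controls the ratio was 0.273, with an interval of 0.00689 to 1.53, which includes 1. Of the cap-binding protein Eif4e itself there were 3 NSC34 and 269 C2C12 reads. The germline form Eif4e1b had 0 reads in both lines.

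Among the other eIF4F genes no C2C12 change passed. Eif4h (chr5:134619721-134639490, minus strand), which stimulates the helicase, ran from 146 to 223 CPM in co-culture (median 173) and from 71.5 to 178 in controls (median 94.2), where control replicates 2 and 5 overlap the co-culture range. Its fold change was 0.44 (95% interval 0.03 to 0.85, adjusted p = 0.298). Eif4g1, the scaffold of eIF4F, was at -0.40 (adjusted p = 0.416) and Eif4g2, a related factor of cap-independent initiation, at -0.12, though Eif4g2 shares sequence with 104 genes, so its reads are uncertain. Eif4a2 was at -0.02 and Eif4e2 at -0.24, with all 6 co-culture libraries of Eif4e2 below the control median.

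The repressor of eIF4E, Eif4ebp1 (chr8:27260329-27276674, plus strand), a target of mTOR, was the fifth most read factor of both lines per kilobase. It ran from 693 to 1781 CPM in NSC34 co-culture (median 1193) and from 0 to 2433 in NSC34 controls (median 1060). It ran from 892 to 1298 in C2C12 co-culture (median 1021) and from 707 to 1185 in C2C12 controls (median 828.6). In C2C12 all 6 co-culture libraries lay above the control median, with overlapping ranges, and the fold change was 0.27 (95% interval 0.02 to 0.51, adjusted p = 0.278). Between lines it was not called under either scaling, at -0.50 in co-culture (95% interval -0.96 to -0.04, adjusted p = 0.0632) and -0.47 in controls (-1.17 to 0.22, adjusted p = 0.332) under TMMwsp, and at -0.02 and 0.44 under totals. Its 20 sequence relatives held 30 NSC34 and 1094 C2C12 reads, against 70 and 3185 of its own. Eif4ebp2 had 2 NSC34 and 114 C2C12 reads and Eif4ebp3 0 and 1.

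The factors of subunit joining did not pass in C2C12 either. Eif5, which makes eIF2 hydrolyse GTP, was at -0.35 in C2C12 co-culture (adjusted p = 0.359), Eif5b, the GTPase of subunit joining, at -0.02 and Eif6, which keeps the large subunit apart, at 0.26. In NSC34 they had 6, 15 and 6 reads. Of these Eif5b was tested between lines and was not called.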

How the data were processed

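The authors deposited 1 table of raw read counts per Ensembl transcript for each line, 12 libraries each, from Trizol total RNA sequenced on a MinION, per the labels' protocols. The submitters' processing notes name GRCm38, while the aligner and counter were not given in the sources used here. Transcript versions were stripped and counts summed per gene with GENCODE M21 names, which matched 37415 of 37677 C2C12 and 10374 of 10427 NSC34 transcripts (0.224% and 0.238% of reads unmatched). Libraries of a group were compared in pairs by chi-square over well-read genes. In C2C12 the lowest value per degree of freedom was 1.372, over 2345 genes, so no pair there was alike within counting noise. The lowest in NSC34 was 1.355, over just 16 genes of control replicates 1 and 2, which does not exclude counting noise. Pairs with too few genes were not compared.

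Each line was fitted on its own with edgeR 4.0.16 (quasi-likelihood test, filterByExpr, TMM), and the lines in 1 model of all 24 libraries with TMMwsp, with Benjamini-Hochberg adjustment over all genes tested and a threshold of 0.05. On simulated libraries TMMwsp shifted unchanged genes, so library totals stand beside it. DESeq2 1.42.0, limma 3.58.1, other filters, scalings and left-out libraries were alternatives. Exact binomial and Poisson intervals (95%) and limits of a count of 0 (3 reads) cover counting error only. Shared sequence was found with BLAST+ 2.17.0 at 100 bases and 90% identity. Lengths for levels per kilobase are annotated lengths weighted by reads.

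Genes are named with values by a rule: those past a threshold, the eEF1A pair, in each role the 2 with most C2C12 reads and the smallest p, paralog pairs and genes at 0. Genes named beyond it were chosen after their values were seen. The members, roles and lists were chosen with earlier results of these data known. The C2C12 libraries allow far tighter statements than the NSC34 ones, which held 28.2% of their reads on tested genes in their own fit, against 88.3% in C2C12. Same-numbered replicates were not paired by the labels or by the data.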

Additional observations from a re-analysis of the deposited data

Results flagged for a closer look

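In C2C12 co-culture, 3 values stood apart from the other 5 libraries of their group, of 50 groups of 6 libraries tested with Dixon's ratio of gap to range (critical value 0.625). Chance gives about 1 in 20 such groups. Eef1b2 was at 2381 CPM in replicate 1, with the next library at 2948 CPM and a ratio of 0.676. Eif4e2 was at 132 CPM in replicate 3, with the next at 178 CPM and a ratio of 0.633. Eif5 was at 125 CPM in the same replicate, with the next at 99.7 CPM and a ratio of 0.650.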

How the results depend on the processing

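No factor passed in C2C12 under the other scalings, tools and filters tried, and 0 or 1 passed with a library left out: Eif3a passed without C2C12 control replicate 5 or 6. In those fits 74 of 2733 and 73 of 2740 genes passed. With the replicate number as a block (replicate block), 0 factors and 26 of 2570 genes passed in C2C12. In NSC34, 0 factors and 0 of 49 genes passed. Between control lines 5 of 27 factors and 555 of 1328 genes passed, and between co-cultured lines 7 of 27 and 679 of 1328. The interaction was passed by 0 factors and 0 genes, so no count of factors changed. Same-numbered deviations correlated between -0.0541 and 0.105 in C2C12 and between -0.241 and 0.323 in NSC34, and of the 12 numbers 3 were best matched by their own.

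Between control lines the 5 called factors became 3 with DESeq2, 13 without the libraries under 1000 reads, and 3 to 14 with a library left out. Leaving out any C2C12 library gave 3, of 18 or 19 factors then tested, beside 302 to 314 of 707 to 716 genes. Leaving out any NSC34 library gave 6 to 14, of 38 to 40 tested, beside 661 to 890 of 2060 to 2158 genes. Between co-cultured lines the 7 became 15 under library totals. The log2 ratio of Eef1a2 to Eef1a1 with 0.5 reads added was 5.85 higher in NSC34 controls than in C2C12 controls (exact permutation p = 0.0022), which follows from the smaller number of Eef1a1 reads there, since Eef1a2 was at 0 in both.

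Signs turned mostly in values near 0 that did not pass. Eif3c in co-culture, which passed at 0.86, was an exception, and Eef1g and Eif3c passed in co-cultured libraries where controls had the other sign. In C2C12, Eef1b2 was -0.0024 under library totals, and without a filter Eif2s2 was 0.036, Eif3h 0.0044, Eif4a2 0.062 and Eif5b 0.067. Eif4a2 was 0.013 with the block and Eif5b 0.15 with the length trend removed. With a library left out, C2C12 values ran from -0.012 to 0.067 for Eef1b2, -0.033 to 0.087 for Eif1ax, -0.028 to 0.12 for Eif4a1, -0.085 to 0.072 for Eif4a2, -0.091 to 0.051 for Eif5b and -0.29 to 0.022 for Eif1a. Eef1a1 in NSC34 was 0.081 without a filter. Between controls Eef1g was 0.67 under library totals, 0.13 with limma-voom and 1.05 in co-cultured libraries, and -0.87 to 0.18 with a library left out. Eif3c there was 0.24 under totals and 0.86 in co-cultured libraries, and in co-culture -0.30 to 1.09 with a library left out. For the interaction, Eif2s2 was -0.038 under totals, Eef1b2 -0.64 to 0.080 and Eif4e2 -0.64 to 5.17 with a library left out. The cause was not tested for any of these.

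Depth limits NSC34: 0 reads there allow up to 54.5 CPM in co-culture (121 CPM without replicate 2, an alternative chosen after seeing the data) and 189 CPM in controls, against 1.66 and 2.004 CPM in C2C12.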
